A study of Mus musculus with 15 samples.

Results

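Colon of saline-treated mice at day 48 of a colitis-associated cancer model was compared with Control colon over every gene in 1 table of counts, using 6 of the 15 RNA-seq libraries of the series. The saline D48 group (3 libraries) came from male C57BL/6J mice labelled as having colitis-associated cancer induced with azoxymethane and dextran sulfate sodium, and as given saline. The labels put the age at 6 to 10 weeks. Azoxymethane (AOM), a colon carcinogen, was injected at 10 mg/kg on day 0. Dextran sulfate sodium (DSS), a polymer that injures the colonic lining, was drunk at 2.5% on days 7 to 11, 28 to 32 and 49 to 53, and saline was injected on the same days as the placebo of an inhibitor given to another group. Day 48 therefore lies between the second and the last DSS period, although the titles of these libraries say cycle 1. The Control group (3 libraries) is labelled C57BL/6, WT. The shared protocol says that all mice received AOM, and the same DSS periods are recorded for Control. Whether the Control mice received AOM or DSS is therefore not settled by the labels. No sampling day is given for Control. The sources do not say whether a library came from 1 mouse or from a pool, from tumour or from the tissue around it, nor at what hour tissue was taken. The p-values therefore speak for the scatter among these libraries, which may be technical. Saline D27 and saline D100 (3 libraries each), the same model sampled on days 27 and 100, are used to place day 48.

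In the normal colon, stem cells at the crypt base give rise to absorptive colonocytes, which take up salt, water and bile acids and burn fatty acids, and to goblet cells, which secrete mucus. Loss of the barrier lets bacteria reach immune cells, whose cytokines call in neutrophils and lymphocytes and switch the epithelium to the production of antimicrobial proteins and oxidants. Repair then rebuilds crypts and matrix, and in AOM-treated mice repeated injury is followed by tumours with active Wnt signalling.

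Libraries held 14948499, 15830387 and 16452308 counts at saline D48, against 14991199, 13548661 and 14508436 in Control. Beside the tissue label colon, 12 of 12 pan-epithelial, 22 of 22 colonocyte differentiation and 23 of 23 goblet cell mucus genes were measured. On the Hox and gut position list 17 of 20 were. Pan-epithelial genes alone do not tell colon from other epithelium. Among them Epcam, an adhesion protein of epithelial cells, was at 1409, 1490 and 1313 CPM at saline D48 against 1585, 1715 and 1546 CPM in Control (log2 -0.2 ± 0.09 SE, edgeR adjusted p = 0.104). Beside a gene, log2 stands for the log2 fold change of saline D48 over Control, with its standard error (SE). Transcripts of other tissues stood apart by library. The exocrine pancreas list took 0.0499, 5.81 and 1.59% of counts in saline D48 replicates 1, 2 and 3, against 0.089, 0.0815 and 0.0878% in Control. The skeletal muscle list took 0.00233, 0.00214 and 0.00308% at saline D48 and 0.251, 0.00342 and 0.112% in Control replicates 1, 2 and 3, and the squamous epithelium list 0.00119, 0.0117 and 0.00122% against 0.152, 0.0012 and 0.0719%. Of the genes higher at saline D48, 55 were over 8 times as high in replicate 2 or 3 as in replicate 1, and of those lower, 82 were over 8 times as high in Control replicate 1 or 3 as in replicate 2. Genes of the pancreas, skeletal muscle and squamous lists are set aside below. For each list, the counts marked "after omission" give first the members called without saline D48 replicates 2 and 3 and then those called without Control replicates 1 and 3. These are separate fits with fewer libraries, and the members called in them need not be the same. They tested 19814 and 19663 genes, and the number of list members tested can differ too. Over all genes a smaller share was called in them than in the fit of all libraries. Counts after omission are therefore not to be set against the shares or list sizes of that fit. A direction not listed there had none.

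Of 18038 genes measured well enough to test, 2574 (14.3%) were higher at saline D48 and 2342 (13%) were lower, 27.3% in all, by edgeR's quasi-likelihood test at a Benjamini-Hochberg adjusted p below 0.05. These shares are the background for every list below, except for the counts after omission. The median log2 fold change was 0.97 over the genes higher and -0.64 over those lower, against 0.00 over all genes tested. Among them 1265 rose and 656 fell by at least 1 on the log2 scale, and 221 rose and 108 fell by at least 3. The 3 libraries of saline D48 and the 3 of Control did not overlap for 7670 genes (42.5%). The smooth muscle list took 1.07, 0.952 and 0.938% of counts at saline D48, against 1.90, 1.77 and 1.83% in Control, so its level separated the groups fully. With the mean level of that list as a covariate 11 genes were higher and 3 lower, while the genes called without it had medians of 0.71 (higher) and -0.44 (lower) on the log2 scale. In such bulk tissue fewer cells of a type and less RNA per cell cannot be told apart.

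**Figure D1:**
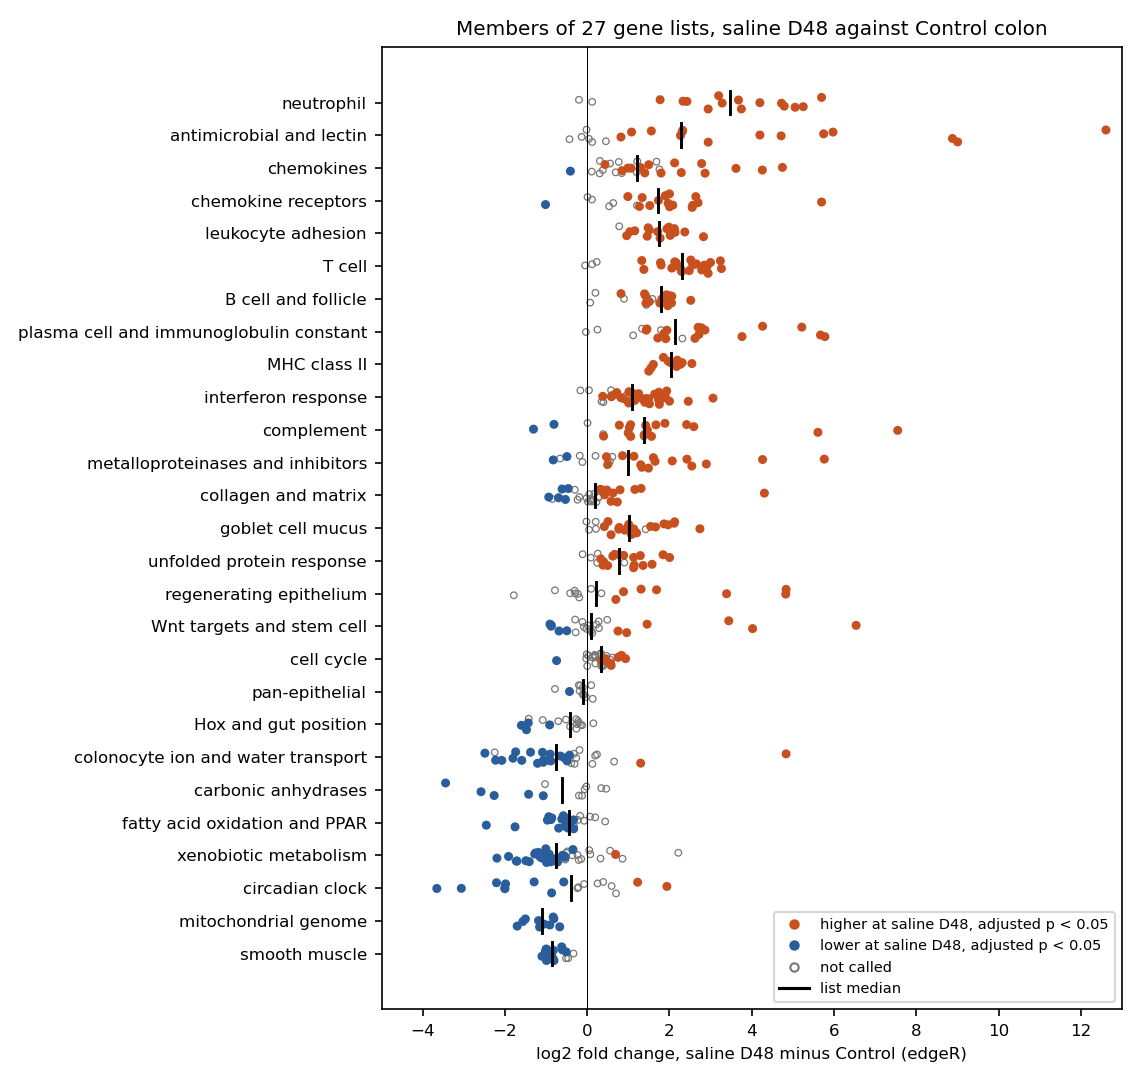
Log2 fold change (saline D48 minus Control, horizontal axis) of every tested member of 27 gene lists, with filled points for members past adjusted p 0.05, open points for the rest and a black bar at the list median. Neutrophil genes have the median farthest to the right of the lists drawn (3.48), and the mitochondrial genome the one farthest to the left (-1.11).

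Genes of neutrophils, the first white cells to enter injured mucosa, and antimicrobial and lectin genes were more often higher than lower at saline D48. Of 16 neutrophil genes tested (23 listed), 14 were higher and 0 lower, with a median log2 fold change of 3.48 (after omission 7 and 8 higher). Genes nearly absent from Control enter a test only where they are high, so such counts describe the list and do not support it. Csf3r, the receptor for granulocyte colony-stimulating factor (chromosome 4, 126024550 to 126044440, plus strand, GRCm38), was at 27.1, 18.1 and 24.2 CPM at saline D48 and at 1.48, 2.56 and 1.13 CPM in Control (log2 3.75 ± 0.34 SE, edgeR adjusted p = 1.04e-05). Mmp9, a gelatinase stored in neutrophil granules, was at 9.39, 11.5 and 10.2 CPM at saline D48 and at 1.42, 1.68 and 2.66 CPM in Control (log2 2.42 ± 0.36 SE, edgeR adjusted p = 0.000263). Both genes were high in all 3 saline D48 libraries and the groups did not overlap. Cxcr2, the receptor through which neutrophils follow Cxcl chemokines, had 186 counts at saline D48 and 3 in Control, a ratio of 58.0 with a 95% counting interval of 19.5 to 284. The alarmin S100a8 reached 5.23, 4.87 and 8.65 CPM at saline D48, against 0.708, 0 and 0.266 CPM in Control (log2 4.2 ± 1.02 SE, edgeR adjusted p = 0.00683).

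Of 20 antimicrobial and lectin genes tested (28 listed), 14 were higher and 0 lower (median 2.29; after omission 7 and 8 higher). By the median over members, in log2 CPM relative to the Control mean, the list stood at 1.23, 2.64 and 2.43 in saline D48 replicates 1, 2 and 3. That is the order of the pancreas share, and the part of pancreatic RNA in the list was not tested. Saa3, an acute phase protein made by epithelium and macrophages (chromosome 7, 46711998 to 46715700, minus strand), was at 16.9, 15.7 and 28.2 CPM at saline D48, against 0.45, 0.219 and 0.266 CPM in Control (log2 5.97 ± 0.55 SE, edgeR adjusted p = 1.04e-05). Ang4, an antimicrobial ribonuclease of secretory cells whose reads may be shared with other angiogenin genes, was at 129, 883 and 84.5 CPM at saline D48 and 0.965, 0.803 and 0.533 CPM in Control (log2 8.88 ± 0.98 SE, edgeR adjusted p = 3.32e-05). The mean of Ang4 was 1998 CPM at saline D27 and 2683 CPM at saline D100, against 365.5 CPM at saline D48. Saline D48 minus saline D27 was -2.45 on the log2 scale (edgeR adjusted p = 0.0831), and minus saline D100 it was -2.88 (edgeR adjusted p = 0.0113). Saa3 was similar in the 3 saline D48 libraries, while Ang4 was highest in replicate 2 and still far above every Control library in replicates 1 and 3. Retnlb, a goblet cell protein with antibacterial activity, had the same order, at 35.2, 347 and 14.1 CPM at saline D48 and 0.257, 0.292 and 0.2 CPM in Control (log2 9.0 ± 1.33 SE, edgeR adjusted p = 0.000241). Lcn2, which binds bacterial iron carriers, was at 11, 19 and 17.3 CPM at saline D48 against 3.35, 1.83 and 4.33 CPM in Control (log2 2.31 ± 0.36 SE, edgeR adjusted p = 0.000372). The lectin Reg3b had no count in Control and 2.78, 127 and 24.3 CPM at saline D48, at least 739-fold higher with 3 counts as the floor for all Control libraries. Its order over the saline D48 libraries was that of the pancreas share, and the part of pancreatic RNA in it was not tested. Serpina3n, a serine protease inhibitor (chromosome 12, 104406729 to 104414329, plus strand), was at 174, 203 and 201 CPM at saline D48 and 17.6, 19.9 and 18 CPM in Control (log2 3.38 ± 0.20 SE, edgeR adjusted p = 3.28e-07), with a narrow spread in both groups. Hp (haptoglobin) was at 24.1, 22.5 and 28.6 CPM at saline D48 and 1.16, 0.438 and 2.6 CPM in Control (log2 4.14 ± 0.59 SE, edgeR adjusted p = 0.000184). Wfdc18, of the whey acidic protein family, was at 16.9, 38.2 and 29.1 CPM at saline D48, against 1.93, 1.83 and 1.66 CPM in Control (log2 3.95 ± 0.29 SE, edgeR adjusted p = 1.75e-06).

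**Figure D2:**
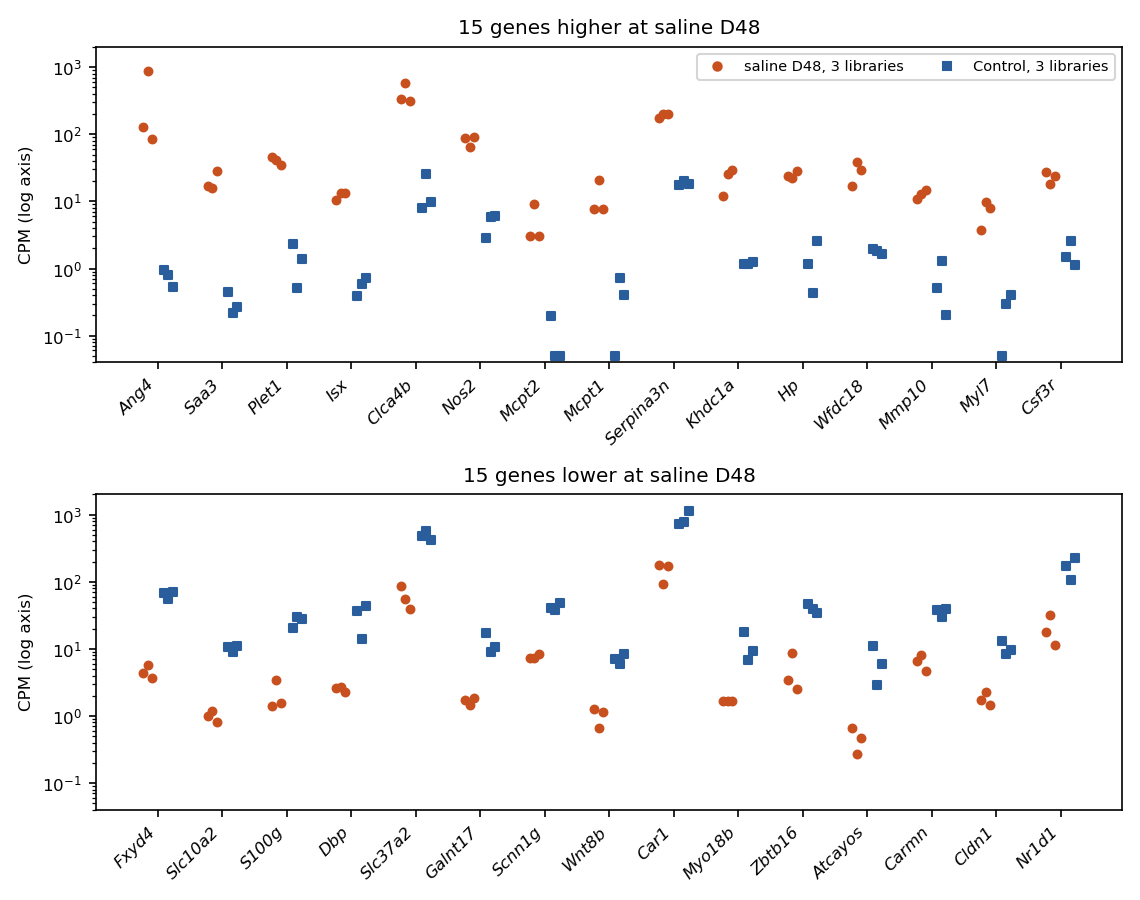
CPM (log axis) in each saline D48 library (circles, left of each pair) and each Control library (squares) for the 15 genes with the widest gap between the groups in either direction, with 0 drawn at 0.05. The groups do not overlap for any of these 30 genes, which were chosen for that gap.

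Among the signals that recruit and activate immune cells, more genes were higher than lower at saline D48, although without Control replicates 1 and 3 as many cytokines were lower as higher. Of 21 cytokine genes tested (39 listed) 11 were higher and 2 lower (after omission 8 and 3 higher, 1 and 3 lower). Il1b, the cytokine released by inflammasome activity, was at 46, 10.9 and 18.1 CPM at saline D48 and 0.901, 1.68 and 1.06 CPM in Control (log2 4.36 ± 0.53 SE, edgeR adjusted p = 5.95e-05), highest in replicate 1. Tnf was at 8.2, 6.4 and 7.26 CPM at saline D48 against 0.129, 2.12 and 2.46 CPM in Control (log2 2.22 ± 0.53 SE, edgeR adjusted p = 0.00638). Il15, which sustains intraepithelial lymphocytes, fell, at 11.4, 7.86 and 9.76 CPM at saline D48 and 29.3, 25.8 and 24 CPM in Control (log2 -1.44 ± 0.17 SE, edgeR adjusted p = 5.17e-05). Of 42 cytokine receptor and STAT3 feedback genes 21 were higher and 3 lower (after omission 14 and 11 higher, 0 and 2 lower); the higher ones included Il4ra, a receptor chain for interleukins 4 and 13 (log2 fold change 1.41 ± 0.14 SE), Csf2rb, the shared receptor chain for granulocyte-macrophage colony-stimulating factor (log2 fold change 1.96 ± 0.21 SE), and Osmr, the oncostatin M receptor (log2 fold change 1.23 ± 0.17 SE), with edgeR adjusted p of 1.58e-05, 3.01e-05 and 0.00013.

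Of 28 chemokines tested (34 listed) 15 were higher and 1 lower (median 1.21; after omission 9 and 4 higher), and of 21 chemokine receptors 15 were higher and 1 lower (median 1.73; after omission 8 and 3 higher, 0 and 1 lower). Cxcl9, an interferon-induced ligand of a chemokine receptor on T cells, was at 13.2, 18.7 and 53.4 CPM at saline D48 and 0.901, 0.657 and 2.86 CPM in Control (log2 4.26 ± 0.62 SE, edgeR adjusted p = 0.000227). Ccl8, a monocyte attractant, was at 17.7, 17.7 and 15.2 CPM at saline D48 against 2.9, 2.56 and 1.86 CPM in Control (log2 2.78 ± 0.42 SE, edgeR adjusted p = 0.000269). The groups did not overlap for either gene, and Cxcl9 was highest in saline D48 replicate 3. Cxcr6, found on resident T cells, was at 3.57, 3.67 and 6.91 CPM at saline D48 and 0.836, 0.876 and 0.666 CPM in Control (log2 2.56 ± 0.38 SE, edgeR adjusted p = 0.000227). Of 16 leukocyte adhesion genes 15 were higher and 0 lower (median 1.74; after omission 11 and 12 higher). Icam1, an integrin ligand on endothelium, was at 32.3, 25.3 and 43.3 CPM at saline D48 and 10.8, 9.42 and 10.5 CPM in Control (log2 1.71 ± 0.19 SE, edgeR adjusted p = 3.13e-05). Selp, the selectin on which leukocytes roll, was at 8.53, 8.33 and 8.42 CPM at saline D48 against 2.44, 2.19 and 1.73 CPM in Control (log2 1.99 ± 0.32 SE, edgeR adjusted p = 0.000441). Both were higher in every saline D48 library than in any Control library.

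Of 17 NF-kB subunit and feedback genes 10 were higher and 1 lower (after omission 6 and 3 higher, 0 and 1 lower), and of 16 immediate early genes 1 was higher and 1 lower (after omission 2 and 0 higher, 0 and 1 lower). Nfkbie, an inhibitor of NF-kB that its own pathway induces, was at 21.3, 13.8 and 30.3 CPM at saline D48 and 6.37, 6.43 and 7.86 CPM in Control (log2 1.66 ± 0.23 SE, edgeR adjusted p = 0.000163). NF-kB is a transcription factor of cytokine and microbial signalling. Its consensus was searched by name on both strands, from 250 bases before to 50 after each start. Of 25 inflammatory and NF-kB pathway genes looked up, 19 had an entry and 6 held it, among them Nfkb2, Nfkbie and Tnfaip3 of the pathway itself. Here and below a listed gene counts if any of its promoters holds the letters, while shares in percent are per promoter. The consensus was in 8.46% of all 32851 promoters in the RefSeq table. It was in 11.6% of promoters of genes higher at saline D48 (267 of 2298) and in 10.2% of those of genes tested and not called (1163 of 11371). Upstream stretches of a pair of the chemokine genes that hold it are shown as examples, Cxcl10 with 3 matches and Cxcl2 with 2. Each runs 5′ to 3′ on the gene's strand and ends at the base before the RefSeq start (GRCm38.p6), with the consensus in capitals.
Cxcl10 (chr5:92348890-92349049, minus strand): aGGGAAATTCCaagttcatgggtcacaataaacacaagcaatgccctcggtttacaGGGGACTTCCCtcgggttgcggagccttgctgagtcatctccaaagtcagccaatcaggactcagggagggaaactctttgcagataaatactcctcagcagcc
Cxcl2 (chr5:90903739-90903898, plus strand): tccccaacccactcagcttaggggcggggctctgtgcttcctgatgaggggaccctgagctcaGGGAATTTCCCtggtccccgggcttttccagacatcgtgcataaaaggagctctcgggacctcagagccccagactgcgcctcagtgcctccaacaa
A match is a description of these letters and not a measured site. The longer capital runs hold 2 overlapping matches. Cxcl10 was at 14.9, 7.8 and 14.8 CPM at saline D48 and 2.9, 1.9 and 5.99 CPM in Control (log2 1.79 ± 0.47 SE, edgeR adjusted p = 0.0107). Cxcl2, a neutrophil attractant, was at 6.68, 2.13 and 1.51 CPM at saline D48 against 0.386, 0.438 and 0 CPM in Control (log2 3.62 ± 0.99 SE, edgeR adjusted p = 0.0136), and its call was lost without saline D48 replicate 1 (log2 2.67, edgeR adjusted p = 0.0893) and without Control replicate 3 (3.04, adjusted p = 0.0535).

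Of 19 enzymes that make oxidants 11 were higher and 1 lower (after omission 9 and 5 higher). Nos2, the inducible nitric oxide synthase (chromosome 11, 78920787 to 78960254, plus strand), was at 86.7, 64.7 and 89.8 CPM at saline D48 and 2.9, 5.77 and 6.12 CPM in Control (log2 4.03 ± 0.46 SE, edgeR adjusted p = 4.57e-05). Duox2, the hydrogen peroxide source of the epithelial surface, was at 668, 659.5 and 508 CPM at saline D48 against 113, 214 and 115 CPM in Control (log2 2.05 ± 0.26 SE, edgeR adjusted p = 9.02e-05). Its maturation factor Duoxa2 was at 89.8, 94.4 and 66.1 CPM at saline D48 and 10.5, 21.4 and 12.5 CPM in Control (log2 2.5 ± 0.32 SE, edgeR adjusted p = 8.88e-05). In all 3 genes the lowest saline D48 library stood above the highest Control library. Of 27 pattern recognition receptors 12 were higher and 3 lower (after omission 7 and 6 higher, 0 and 1 lower). Nod2, the intracellular sensor of bacterial muramyl dipeptide, was at 12.8, 9.13 and 12.5 CPM at saline D48 and 3.02, 2.26 and 2.66 CPM in Control (log2 2.11 ± 0.30 SE, edgeR adjusted p = 0.000191). Nlrp3, an inflammasome sensor, was at 6.29, 3.46 and 4.41 CPM at saline D48 against 0.322, 0.365 and 1.13 CPM in Control (log2 2.94 ± 0.48 SE, edgeR adjusted p = 0.000485).

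Complement, the cascade of serum proteins that tags microbes, rose in 16 of 21 genes with 2 lower (median 1.37; after omission 10 and 10 higher). C4b, of the classical pathway, was at 360, 379 and 356 CPM at saline D48 and 88.3, 106 and 101 CPM in Control (log2 1.89 ± 0.12 SE, edgeR adjusted p = 5.5e-07). The central component C3 was at 602, 644 and 895 CPM at saline D48 against 119.9, 119.6 and 162 CPM in Control (log2 2.42 ± 0.20 SE, edgeR adjusted p = 6.85e-06). C6, of the membrane attack complex, had 72 counts at saline D48 and none in Control, at least 22.4-fold higher with 3 counts as the floor for all Control libraries. Macrophage and dendritic cell genes were higher in 15 of 26 cases and lower in 1 (after omission 13 and 10 higher, 0 and 1 lower), among them the lysozyme Lyz2 at 455, 447 and 730.2 CPM at saline D48 and 128, 165 and 163 CPM in Control (log2 1.84 ± 0.20 SE, edgeR adjusted p = 3.23e-05).

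T cell and MHC class II genes were higher at saline D48, with list medians highest in replicate 3, while B cell genes were uneven among the saline D48 libraries. Of 27 T cell genes 24 were higher and 0 lower (median 2.30; after omission 12 and 12 higher). Cd4, the helper T cell co-receptor, was at 33.1, 24.3 and 38.5 CPM at saline D48 and 5.02, 4.67 and 7.46 CPM in Control (log2 2.48 ± 0.26 SE, edgeR adjusted p = 2.22e-05). Foxp3, which defines regulatory T cells, was at 2.25, 2.27 and 4.18 CPM at saline D48 against 0, 0.292 and 0.599 CPM in Control (log2 3.26 ± 0.76 SE, edgeR adjusted p = 0.00526). Gzmb, a cytotoxic granule protease, was at 3.04, 4.26 and 6.91 CPM at saline D48 and 0.836, 0.511 and 1.26 CPM in Control (log2 2.43 ± 0.42 SE, edgeR adjusted p = 0.000717). Groups did not overlap for these genes, and replicate 3 held the highest level of each. Of 22 B cell and follicle genes 17 were higher and 0 lower (after omission 10 and 0 higher), so none was called without Control replicates 1 and 3. The groups did not overlap for 7 of the 22, against 42.5% of all genes. Cr2, the complement receptor of follicular dendritic and B cells, was at 19.4, 5.66 and 57.5 CPM at saline D48 and 4.31, 5.62 and 4.53 CPM in Control (log2 2.52 ± 0.55 SE, edgeR adjusted p = 0.00364). Replicate 2 lay at the Control level and replicate 3 far above it. By the median over list members, in log2 CPM relative to the Control mean, the B cell list stood at 1.26, -0.17 and 2.70 in saline D48 replicates 1, 2 and 3 and between -0.15 and 0.09 in Control. The labels do not say whether a library held a lymphoid follicle, and this was not tested.

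Plasma cell and immunoglobulin constant genes rose in 16 of 22 cases, and none fell (after omission 13 and 11 higher). Igha, the heavy chain of the mucosal antibody IgA, was at 8978, 5760 and 6973 CPM at saline D48 and 969, 1308 and 1258 CPM in Control (log2 2.62 ± 0.26 SE, edgeR adjusted p = 2.11e-05). IgG genes rose by more on the log2 scale. Ighg2c was at 305, 277 and 1052 CPM at saline D48 and 5.92, 12 and 14.2 CPM in Control (log2 5.67 ± 0.58 SE, edgeR adjusted p = 2.16e-05). Ighg1 was at 48.7, 83.2 and 453 CPM at saline D48 against 1.86, 4.46 and 4.39 CPM in Control (log2 5.78 ± 0.93 SE, edgeR adjusted p = 0.000426), over 5 times as high in replicate 3 as in the other saline D48 libraries. Near-identical constant regions may share reads. Derl3, a factor of protein disposal in secretory cells, was at 22.2, 28.6 and 29.9 CPM at saline D48 and 3.41, 5.7 and 3.4 CPM in Control (log2 2.7 ± 0.24 SE, edgeR adjusted p = 9.69e-06).

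All 11 MHC class II genes tested, which present antigen to helper T cells, were higher (median 2.03; after omission 10 and 7 higher). H2-Ab1, a class II beta chain, was at 491, 420.2 and 895 CPM at saline D48 and 112, 112 and 140.2 CPM in Control (log2 2.31 ± 0.23 SE, edgeR adjusted p = 2.16e-05). Its partner H2-Aa was at 516, 367 and 989 CPM at saline D48 against 123, 135 and 157 CPM in Control (log2 2.17 ± 0.27 SE, edgeR adjusted p = 7.97e-05), and H2-Eb1 was at 381, 309.7 and 702 CPM at saline D48 against 96.4, 110 and 135 CPM in Control (log2 2.03 ± 0.25 SE, edgeR adjusted p = 8.02e-05). All 3 were highest in replicate 3 and did not overlap with Control. Class II promoters are known to carry a Y box that the factor NF-Y binds. Its letters CTGATTGG, searched on both strands, were in the promoters of 4 of 8 class II genes with an entry, of 10 looked up, and in 4.10% of all 32851 promoters. The stretches before H2-Aa and H2-Eb1 are printed in the same way, with the Y box in capitals, because both genes are described here.
H2-Aa (chr17:34287824-34287983, minus strand): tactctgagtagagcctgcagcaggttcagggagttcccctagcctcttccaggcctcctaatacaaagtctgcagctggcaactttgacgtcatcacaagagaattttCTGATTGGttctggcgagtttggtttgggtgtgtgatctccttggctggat
H2-Eb1 (chr17:34305707-34305866, plus strand): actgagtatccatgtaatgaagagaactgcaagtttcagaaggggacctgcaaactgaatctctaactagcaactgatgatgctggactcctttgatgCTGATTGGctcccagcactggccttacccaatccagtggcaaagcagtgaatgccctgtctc
Over all genes higher at saline D48 the Y box was in 4.74% of promoters (109 of 2298), and over genes tested and not called in 5.46% (621 of 11371). Of 21 class I and antigen processing genes 18 were higher and 1 lower (after omission 8 and 9 higher). Nlrc5, the transactivator of class I genes, was at 38, 49 and 103 CPM at saline D48 and 15.7, 9.71 and 13.4 CPM in Control (log2 2.29 ± 0.30 SE, edgeR adjusted p = 0.000101). Of 38 interferon response genes 28 were higher and 0 lower (median 1.09; after omission 5 and 20 higher). Ifi47, an interferon-induced GTPase, was at 35.1, 48.2 and 66.5 CPM at saline D48 against 10.0, 7.96 and 9.25 CPM in Control (log2 2.46 ± 0.25 SE, edgeR adjusted p = 2.11e-05). Ido1, which degrades tryptophan, was at 7.87, 17.4 and 31.1 CPM at saline D48 and 3.67, 1.39 and 1.66 CPM in Control (log2 3.06 ± 0.53 SE, edgeR adjusted p = 0.000697), lowest in replicate 1 and highest in replicate 3.

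**Figure D3:**
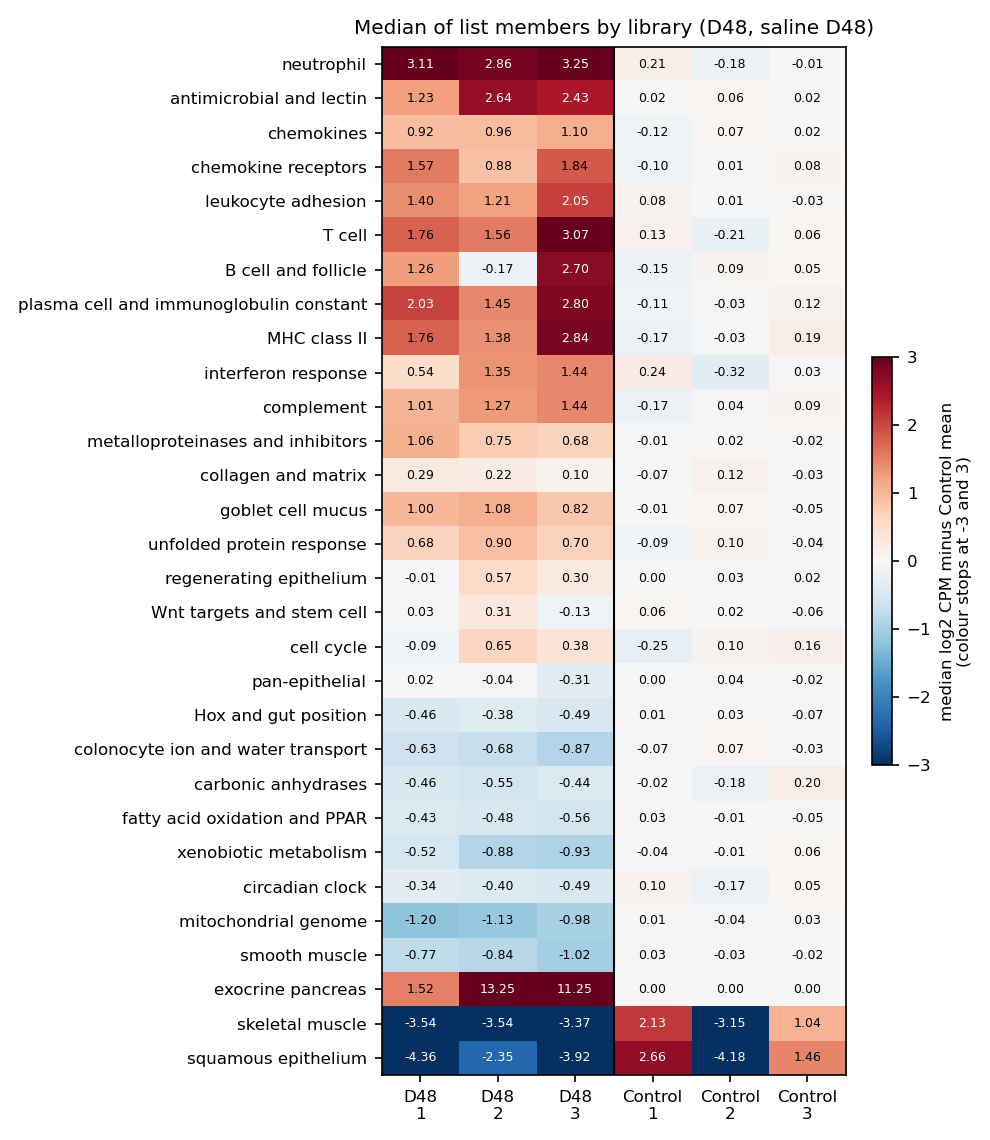
Median over the tested members of each list of log2 CPM minus the mean Control log2 CPM, for the 3 saline D48 libraries (left of the line) and the 3 Control libraries (right), with the value printed in each cell. Lymphocyte and class II lists are highest in saline D48 replicate 3. Pancreas genes are highest in saline D48 replicates 2 and 3, and skeletal muscle and squamous genes in Control replicates 1 and 3.

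Goblet cell genes and the secretory stress response were higher at saline D48. Of 23 goblet and mucus genes 18 were higher and 0 lower (median 1.01; after omission 14 and 14 higher). Muc2, the gel-forming mucin, was at 12080, 11650 and 8490 CPM at saline D48 and 2440, 2649 and 2297 CPM in Control (log2 2.12 ± 0.19 SE, edgeR adjusted p = 1.04e-05). Spdef, a transcription factor of goblet cell maturation, was at 101, 83.7 and 70.4 CPM at saline D48 against 29.5, 23.9 and 27.3 CPM in Control (log2 1.66 ± 0.17 SE, edgeR adjusted p = 2.34e-05). Spink4, a small protein of goblet granules, was at 372, 511 and 349 CPM at saline D48 and 57.4, 69 and 58 CPM in Control (log2 2.74 ± 0.30 SE, edgeR adjusted p = 2.84e-05). Of 21 genes of the unfolded protein response 16 were higher and 0 lower (median 0.77; after omission 12 and 8 higher). The chaperone gene Hspa5 was at 1037, 1199 and 1009 CPM at saline D48 and 412, 513 and 400.5 CPM in Control (log2 1.29 ± 0.22 SE, edgeR adjusted p = 0.000676). Creld2, an endoplasmic reticulum stress gene, was at 95, 129 and 107 CPM at saline D48 against 24.2, 30.8 and 27.6 CPM in Control (log2 2.0 ± 0.22 SE, edgeR adjusted p = 3.52e-05). Among other secretory or rare cells, 5 of 12 tuft cell genes (after omission 5 and 1 higher) and 4 of 11 mast cell and eosinophil genes (after omission 2 and 4 higher) were higher and none was lower. Of 17 enteroendocrine genes 4 were higher and 2 lower (after omission 4 and 0 higher, 0 and 1 lower). The mucosal mast cell proteases Mcpt1 and Mcpt2, near-identical genes whose reads may be shared, had 7.67, 20.9 and 7.61 CPM and 3.04, 9.06 and 3.08 CPM at saline D48, against 0, 0.73 and 0.399 CPM and 0.193, 0 and 0 CPM in Control (edgeR adjusted p = 0.000466 and 0.000372).

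More transport genes of the absorptive colonocyte were lower than higher at saline D48. Of 30 ion and water transport genes 18 were lower and 2 higher (median -0.77; after omission 2 and 2 higher, 6 and 11 lower). Slc26a3, the chloride and bicarbonate exchanger of the colon surface, was at 504, 276 and 361 CPM at saline D48 and 1138, 1593 and 1257 CPM in Control (log2 -1.8 ± 0.29 SE, edgeR adjusted p = 0.0004). Scnn1g, a subunit of the epithelial sodium channel, was at 7.21, 7.26 and 8.3 CPM at saline D48 against 41.2, 37.9 and 48.7 CPM in Control (log2 -2.49 ± 0.51 SE, edgeR adjusted p = 0.00216). Sgk1, the kinase through which aldosterone acts on that channel, was at 137, 113 and 104 CPM at saline D48 and 610, 668 and 377 CPM in Control (log2 -2.23 ± 0.32 SE, edgeR adjusted p = 0.000205). The 3 genes were lower in every saline D48 library than in any Control library. Fxyd4, a regulator of the sodium pump (chromosome 6, 117933559 to 117937692, minus strand), was at 4.3, 5.73 and 3.72 CPM at saline D48 and 68.4, 56.2 and 69.9 CPM in Control (log2 -3.82 ± 0.41 SE, edgeR adjusted p = 2.91e-05). Slc10a2, the bile acid carrier of the gut, was at 0.992, 1.2 and 0.813 CPM at saline D48 against 10.8, 8.91 and 11 CPM in Control (log2 -3.35 ± 0.47 SE, edgeR adjusted p = 0.000183). S100g, an intracellular calcium carrier, was at 1.39, 3.46 and 1.57 CPM at saline D48 and 20.5, 29.4 and 28.3 CPM in Control (log2 -3.61 ± 0.68 SE, edgeR adjusted p = 0.00132). Slc37a2, a sugar phosphate exchanger, was at 87.4, 56 and 38.9 CPM at saline D48 against 484, 561 and 417 CPM in Control (log2 -3.0 ± 0.31 SE, edgeR adjusted p = 2.33e-05). Fxyd4, Slc10a2, S100g and Slc37a2 were chosen for their gap between the groups, so their lack of overlap was fixed by that choice.

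Carbonic anhydrases, which supply bicarbonate and protons for transport, were lower in 5 of 12 cases (after omission 3 and 2 lower). Car1 was at 178, 94 and 172 CPM at saline D48 and 724, 781 and 1152 CPM in Control (log2 -2.58 ± 0.38 SE, edgeR adjusted p = 0.000251), and Car2 was at 498, 270 and 297 CPM at saline D48 against 936, 957 and 965 CPM in Control (log2 -1.42 ± 0.17 SE, edgeR adjusted p = 5.78e-05). Not every gene on the transport list fell. Aqp4, a water channel, was at 331, 324 and 202 CPM at saline D48 and 102, 140.3 and 106 CPM in Control (log2 1.3 ± 0.17 SE, edgeR adjusted p = 0.000107). Clca4b, of a family with near-identical copies, was at 338, 577 and 318 CPM at saline D48 against 7.98, 25.7 and 9.79 CPM in Control (log2 4.83 ± 0.69 SE, edgeR adjusted p = 0.0002). Of 16 tight junction genes 1 was higher and 3 were lower (after omission 1 and 1 higher, 1 and 1 lower). Cldn15, a claudin that forms sodium pores, was at 91.2, 95.6 and 77.5 CPM at saline D48 and 32.9, 29.1 and 29.6 CPM in Control (log2 1.53 ± 0.16 SE, edgeR adjusted p = 2.44e-05). Ocln (occludin) was at 106, 88.1 and 86.7 CPM at saline D48 against 162, 172 and 177 CPM in Control (log2 -0.87 ± 0.12 SE, edgeR adjusted p = 0.000115), and Cldn1 was at 1.72, 2.27 and 1.45 CPM at saline D48 and 13.1, 8.47 and 9.72 CPM in Control (log2 -2.52 ± 0.52 SE, edgeR adjusted p = 0.00231). Of 12 pan-epithelial genes 1 was lower and 0 were higher (after omission none called), and of 22 differentiation genes 5 were lower and 3 higher (after omission 3 and 1 higher, 0 and 2 lower).

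Of 17 genes on the Hox and gut position list 4 were lower and 0 higher (after omission 3 and 3 lower), a share called below the 27.3% of all genes. By direction, the 4 of 17 lower were a larger share than the 13% of all genes that were lower. The list median was -0.42 on the log2 scale. The homeobox gene Cdx2, which specifies intestine and stands on the differentiation list, was at 105, 51.1 and 53.9 CPM at saline D48 and 37, 26.2 and 25.4 CPM in Control (log2 1.24 ± 0.25 SE, edgeR adjusted p = 0.00211). Isx, an intestinal homeobox gene on none of the lists, was at 10.6, 13.5 and 13.5 CPM at saline D48 against 0.386, 0.584 and 0.732 CPM in Control (log2 4.45 ± 0.55 SE, edgeR adjusted p = 7.05e-05). Hoxd13, the most posterior gene of its cluster, was at 79, 108 and 81.7 CPM at saline D48 and 249.5, 250.2 and 226 CPM in Control (log2 -1.43 ± 0.26 SE, edgeR adjusted p = 0.00109). The labels do not give the stretch of colon taken, so a difference in position and a difference in regulation cannot be told apart here.

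Genes of xenobiotic metabolism and fatty acid oxidation were lower more often than higher at saline D48. Of 44 genes of xenobiotic metabolism 26 were lower and 1 higher (median -0.77; after omission 1 and 1 higher, 11 and 17 lower). Cyp2c68 was at 45.4, 25.8 and 35.5 CPM at saline D48 and 115, 111 and 124 CPM in Control (log2 -1.72 ± 0.20 SE, edgeR adjusted p = 4.54e-05). Aldh1a1, which makes retinoic acid, was at 27.5, 21 and 19.1 CPM at saline D48 against 48.2, 47.8 and 57.5 CPM in Control (log2 -1.19 ± 0.15 SE, edgeR adjusted p = 6.99e-05). Of 28 fatty acid oxidation and PPAR genes 19 were lower and 0 higher (median -0.45; after omission 7 and 10 lower). Cpt1a, which brings long-chain fatty acids into mitochondria, was at 256, 221 and 199.6 CPM at saline D48 and 436, 399 and 410.3 CPM in Control (log2 -0.88 ± 0.12 SE, edgeR adjusted p = 0.000128). Pdk4, a PPAR target that restrains glucose oxidation, was at 3.04, 5.07 and 3.54 CPM at saline D48 against 26.1, 15 and 22.7 CPM in Control (log2 -2.45 ± 0.25 SE, edgeR adjusted p = 2.11e-05). Of 24 citrate cycle and mitochondrial biogenesis genes 9 were lower and 0 higher (after omission 1 and 2 lower). All 10 genes of the mitochondrial genome tested (13 listed) were lower (after omission 9 and 9 lower), with a median of -1.11 and shares of all counts of 1.84, 1.59 and 1.88% at saline D48 and 3.37, 3.18 and 3.33% in Control. Of 46 nuclear genes of the respiratory chain 5 were lower and 2 higher (median 0.00; after omission 1 and 1 lower). Other metabolic lists had members called in both directions. Of 25 sterol and fatty acid synthesis genes 7 were higher and 1 lower (median 0.29; after omission none called), and of 23 NRF2 and redox defence genes 7 were higher and 5 lower (median -0.01; after omission 2 and 1 higher, 1 and 0 lower). Cycs, the electron carrier cytochrome c and 1 of the lower respiratory chain genes, was at 21.6, 13.1 and 19.1 CPM at saline D48 and 28.4, 35.3 and 37.5 CPM in Control (log2 -0.91 ± 0.21 SE, edgeR adjusted p = 0.00448).

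Genes of the circadian clock moved in opposite directions. Of 18 listed 9 were lower and 2 higher (after omission 2 and 1 higher, 5 and 6 lower). Dbp, an output gene of the clock (chromosome 7, 45705088 to 45710203, plus strand), was at 2.58, 2.67 and 2.27 CPM at saline D48 and 36.9, 14.2 and 43.5 CPM in Control (log2 -3.65 ± 0.54 SE, edgeR adjusted p = 0.000238). Nr1d1, the repressor REV-ERB alpha, was at 18.1, 31.4 and 11.4 CPM at saline D48 against 169.9, 107 and 229 CPM in Control (log2 -3.06 ± 0.39 SE, edgeR adjusted p = 8.86e-05). Tef, a relative of Dbp, was at 20.9, 22.5 and 24.9 CPM at saline D48 and 96.3, 68.5 and 109 CPM in Control (log2 -2.0 ± 0.26 SE, edgeR adjusted p = 9.95e-05). These 3 genes were lower in all saline D48 libraries than in any Control library. Nfil3, a repressor of the genes that Dbp activates, was higher, at 22.2, 21.1 and 18.6 CPM at saline D48 and 6.17, 6.72 and 3.26 CPM in Control (log2 1.94 ± 0.23 SE, edgeR adjusted p = 6.22e-05). Cry1, a late repressor of the clock, was at 39, 33.2 and 38.1 CPM at saline D48 against 15.2, 18 and 14.1 CPM in Control (log2 1.23 ± 0.20 SE, edgeR adjusted p = 0.000422). Core genes Clock (log2 -0.08 ± 0.11 SE, edgeR adjusted p = 0.65) and Arntl (log2 0.59 ± 0.22 SE, edgeR adjusted p = 0.0517) were not called. The hour of sampling is not in the labels and its part was not tested. The E-box letters CACGTG, through which the CLOCK protein acts, were in the promoters of 5 of 16 clock genes with an entry, of 18 looked up, and in 7.15% of all 32851 promoters. Ciart, an E-box repressor, is shown since its stretch holds 3, in capitals.
Ciart (chr3:95882229-95882388, minus strand): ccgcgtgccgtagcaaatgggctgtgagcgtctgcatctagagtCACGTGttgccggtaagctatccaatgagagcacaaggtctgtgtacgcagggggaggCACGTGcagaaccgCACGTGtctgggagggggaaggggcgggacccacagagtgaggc
Ciart was at 1.26, 2.07 and 2.38 CPM at saline D48 and 6.63, 3.94 and 12.1 CPM in Control (log2 -1.99 ± 0.44 SE, edgeR adjusted p = 0.00358). The E-box was in 8.09% of promoters of genes higher (186 of 2298), in 9.80% of those lower (223 of 2276) and in 9.24% of those not called (1051 of 11371).

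Several Wnt, protease and matrix genes were higher at saline D48 with their highest level in replicate 2, the library richest in pancreas transcripts. Of 24 Wnt target and stem cell genes 6 were higher and 5 lower (median 0.08; after omission 2 and 2 higher, 3 and 1 lower). Wif1, a secreted Wnt antagonist, was at 3.57, 28.7 and 7.26 CPM at saline D48 and 0.965, 1.53 and 1.13 CPM in Control (log2 3.44 ± 0.78 SE, edgeR adjusted p = 0.00435). Sp5, a transcriptional target of Wnt signalling, was at 0.86, 6.6 and 1.1 CPM at saline D48 against 0.0643, 0 and 0 CPM in Control (log2 6.54 ± 1.32 SE, edgeR adjusted p = 0.00209); with 1 count in Control its ratio of 122 has a counting interval from 21.6 to 4870. Notum, an enzyme that inactivates Wnt ligands, was at 1.06, 11.8 and 1.92 CPM at saline D48 and 0.386, 0.438 and 0.0666 CPM in Control (log2 4.02 ± 1.18 SE, edgeR adjusted p = 0.019). In all 3 genes replicate 2 was at least 3 times the other saline D48 libraries. Mmp7, a metalloproteinase, was at 1.46, 23.5 and 9.35 CPM at saline D48 and 0, 0 and 0.599 CPM in Control (log2 5.76 ± 1.14 SE, edgeR adjusted p = 0.00179). Spp1 (osteopontin) was at 0.926, 28.6 and 1.74 CPM at saline D48 against 0.772, 0.438 and 0.333 CPM in Control (log2 4.31 ± 1.25 SE, edgeR adjusted p = 0.0179). Without saline D48 replicate 2 the calls of Notum (log2 2.31, edgeR adjusted p = 0.185) and Spp1 (1.36, adjusted p = 0.350) were lost. Without Control replicate 3 their adjusted p were 0.0766 and 0.0699, without Control replicate 1 that of Notum was 0.0549, and without Control replicate 2 that of Spp1 was 0.0583. Prox1, a homeobox gene of lymphatic endothelium and of enteroendocrine and tumour cells, was at 5.36, 29.2 and 12.4 CPM at saline D48 and 5.28, 3.51 and 3.53 CPM in Control (log2 1.93 ± 0.49 SE, edgeR adjusted p = 0.00825), and its call was lost without replicate 2 (log2 1.12, edgeR adjusted p = 0.0690). Whether these transcripts came from a lesion or from pancreatic RNA was not tested.

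The stem cell gene Lgr5 was lower, at 4.76, 13.9 and 8.54 CPM at saline D48 and 16.9, 18.6 and 14.5 CPM in Control (log2 -0.88 ± 0.31 SE, edgeR adjusted p = 0.0474), a call that was lost when any of the 6 libraries other than saline D48 replicate 2 was left out, with edgeR adjusted p from 0.0658 to 0.142. The Wnt feedback gene Axin2 was at 35.3, 69.5 and 38.3 CPM at saline D48 against 37.6, 33.7 and 30.6 CPM in Control and was not called (log2 0.49 ± 0.20 SE, edgeR adjusted p = 0.0847). Of 16 regenerating epithelium genes 7 were higher and 0 lower (after omission 6 and 4 higher). Plet1, a gene of the regrowing colon lining (chromosome 9, 50494525 to 50505482, plus strand), was at 45.7, 41.3 and 35.4 CPM at saline D48 and 2.32, 0.511 and 1.4 CPM in Control (log2 4.83 ± 0.42 SE, edgeR adjusted p = 9.49e-06), with all saline D48 libraries far above Control. Clu (clusterin), of injury-induced stem cells, was at 174, 296 and 353 CPM at saline D48 against 77.7, 87.2 and 90.9 CPM in Control (log2 1.69 ± 0.22 SE, edgeR adjusted p = 0.000105). Ly6a, a marker of fetal-like repair, was at 329.6, 564 and 573 CPM at saline D48 and 169.5, 248 and 175 CPM in Control (log2 1.31 ± 0.20 SE, edgeR adjusted p = 0.000309). Of 31 cell cycle genes 9 were higher and 1 lower (after omission none called). Of 13 EGF family genes 0 were higher and 2 lower (after omission 1 and 0 higher), and of 24 hypoxia and glycolysis genes 2 were higher and 3 lower (after omission 1 and 2 lower). Of 26 prostaglandin and leukotriene genes 5 were higher and 4 lower (after omission 4 and 1 higher, 2 and 3 lower). Hpgd, which breaks prostaglandins down, was at 91.6, 87.7 and 86.6 CPM at saline D48 and 183, 165 and 155 CPM in Control (log2 -0.92 ± 0.11 SE, edgeR adjusted p = 6.96e-05).

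**Figure D4:**
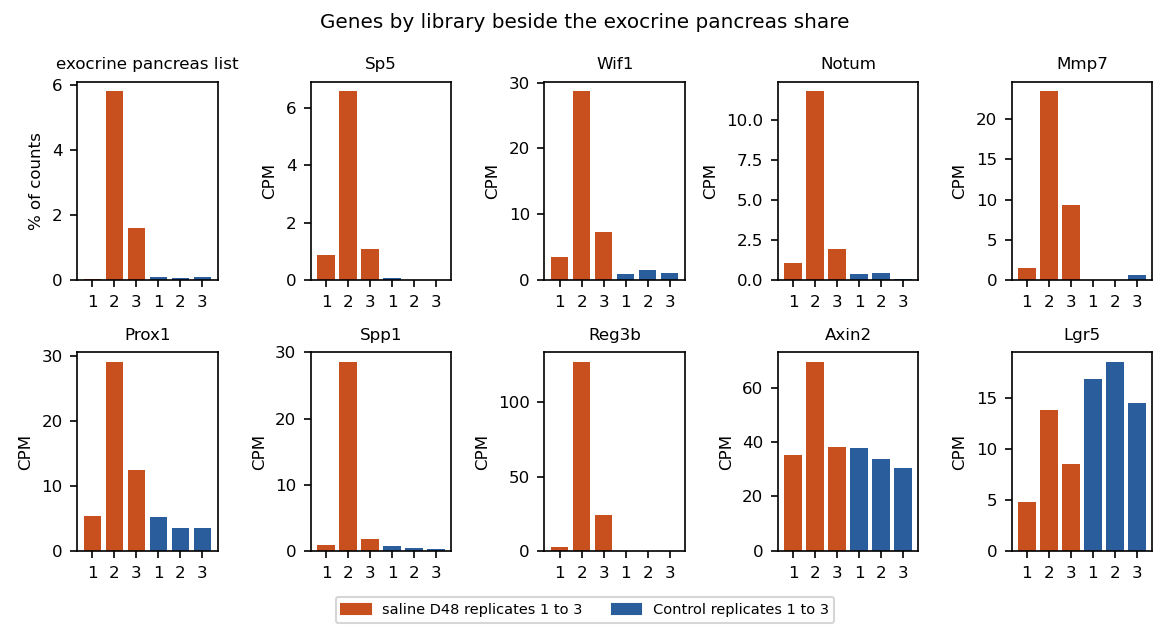
Share of counts from the exocrine pancreas list (%) and CPM of 9 genes in the 3 saline D48 libraries (left bars) and the 3 Control libraries (right bars), each axis starting at 0. Sp5, Wif1, Notum, Mmp7, Prox1, Spp1 and Reg3b are highest in saline D48 replicate 2, which also has the largest pancreas share (5.81%).

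Some matrix and protease genes were higher at saline D48 than in Control and than on either other saline day. Of 32 collagen and matrix genes 13 were higher than in Control and 5 lower (median 0.20; after omission 6 and 2 higher, 0 and 1 lower). Of the same genes 11 were higher than at saline D27, where 0.854% of all genes were higher and 0.499% lower, and 23 were higher than at saline D100, where 6.4% were higher and 7.2% lower. Col18a1, a basement membrane collagen (chromosome 10, 77052178 to 77166548, minus strand), was at 175, 193 and 168 CPM at saline D48, against 92.8, 84.8 and 79.8 CPM at saline D27, 84.4, 77.9 and 83.8 CPM at saline D100 and 79.6, 84.9 and 76.1 CPM in Control. The 3 log2 fold changes were 1.06, 1.12 and 1.16, with edgeR adjusted p of 0.00018, 4.09e-05 and 6.85e-06. No saline D48 library overlapped with any of the others. Col4a1, a basement membrane collagen too, was at 594, 588 and 575 CPM at saline D48, against 405, 346 and 404 CPM at saline D27, 283, 316 and 301 CPM at saline D100 and 365, 412 and 362 CPM in Control (log2 0.61, 0.96 and 0.63, edgeR adjusted p = 0.0103, 0.000104 and 0.000447). Of 18 endothelial genes 7 were higher than in Control and 1 lower (after omission 1 and 1 higher).

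Of 24 metalloproteinases and inhibitors 15 were higher than in Control and 2 lower (median 1.00; after omission 10 and 8 higher, 1 and 0 lower). Mmp3, a stromelysin of fibroblasts, was at 18.9, 14.2 and 28.8 CPM at saline D48, against 3.85, 3.86 and 4.47 CPM at saline D27, 4.1, 4.49 and 1.58 CPM at saline D100 and 3.28, 2.48 and 2.53 CPM in Control (log2 2.35, 2.60 and 2.90, edgeR adjusted p = 0.00397, 0.000327 and 5e-05). Mmp10, its relative in wound epithelium, was at 10.9, 13 and 14.9 CPM at saline D48 and 0.515, 1.31 and 0.2 CPM in Control (log2 4.26 ± 0.57 SE, edgeR adjusted p = 0.000113). On the other saline days Mmp10 was at 2.56, 0.757 and 1.24 CPM at saline D27 and 1.41, 1.54 and 1.2 CPM at saline D100. Both genes were higher in all saline D48 libraries than in any of the other 9.

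Over all genes, 106 (0.588%) were higher at saline D48 than in Control and on both other saline days, and 30 (0.166%) were lower. The 3 comparisons share the saline D48 libraries and so are not independent. Of the 106, 20 were over 8 times as high in replicate 2 or 3 as in replicate 1 and 86 were not. The 106 included 16 of 18 exocrine pancreas genes, and beside these 7 of 32 matrix genes, 4 of 24 metalloproteinases and inhibitors, 3 of 16 neutrophil genes and 3 of 21 complement genes. Saa3 was at 0.836, 0.826 and 1.61 CPM at saline D27 and 0.918, 1.09 and 1.58 CPM at saline D100, below all saline D48 libraries (log2 4.21 and 4.08, edgeR adjusted p = 0.00153 and 0.000212). Lcn2 was at 3.85, 4.48 and 5.33 CPM at saline D27 and 3.53, 1.73 and 2.41 CPM at saline D100 (log2 1.79 and 2.62, edgeR adjusted p = 0.0217 and 0.000634). On both days these genes lay closer to Control than to saline D48.

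Among the 30 lower were both monoamine oxidases and 4 of 44 xenobiotic metabolism genes. Maoa was at 278, 312 and 250 CPM at saline D48, against 542, 457 and 444 CPM at saline D27, 534, 586 and 643 CPM at saline D100 and 505, 545 and 551 CPM in Control (log2 -0.78, -1.07 and -0.93, edgeR adjusted p = 0.00397, 8.78e-05 and 5.17e-05). Maob was at 19.6, 14.8 and 13.7 CPM at saline D48, against 28.4, 31 and 31.1 CPM at saline D27, 46.6, 27.9 and 30.5 CPM at saline D100 and 37.7, 38.9 and 42.8 CPM in Control. Ugt2b34, a glucuronosyltransferase, was at 243, 198 and 171 CPM at saline D48, against 316, 277 and 300 CPM at saline D27, 391, 409 and 437 CPM at saline D100 and 354, 402 and 405 CPM in Control (log2 -0.55, -1.02 and -0.92, edgeR adjusted p = 0.0271, 0.000169 and 7.05e-05). For these 3 genes the saline D48 libraries were the lowest of the 12.

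**Figure D5:**
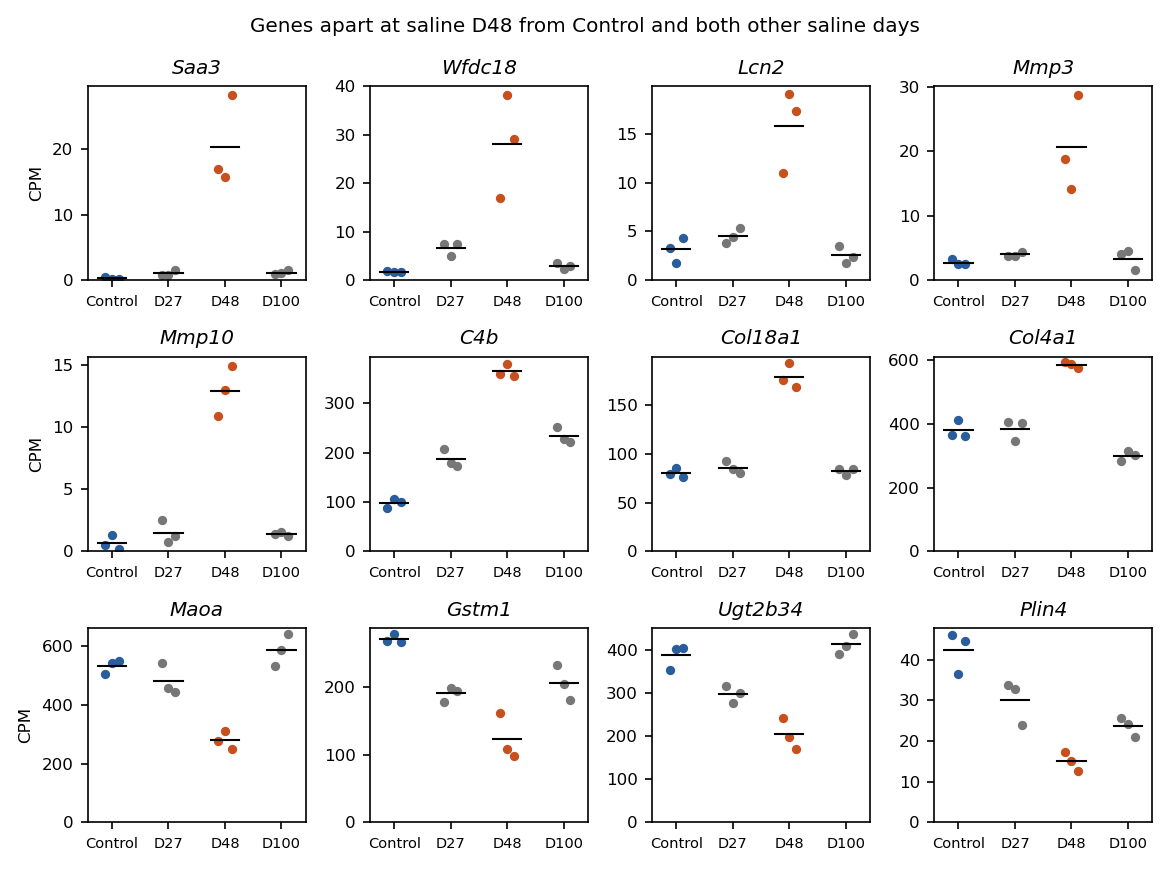
CPM of 12 genes in each library of Control, saline D27, saline D48 and saline D100, with a bar at the mean of 3 libraries and each axis starting at 0. The first 8 genes peak at saline D48 and the last 4 are lowest there.

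Smooth muscle genes fell in 16 of 19 cases, and none rose (median -0.86; after omission 11 and 13 lower). All 19 showed no overlap between the groups, as did 42.5% of all genes tested. Tpm1 (tropomyosin) was at 860.5, 864 and 766 CPM at saline D48 and 1666, 1523 and 1590 CPM in Control (log2 -0.94 ± 0.12 SE, edgeR adjusted p = 9.4e-05). Carmn, a long noncoding RNA of smooth muscle, was at 6.62, 8.2 and 4.7 CPM at saline D48 against 38.3, 30.3 and 39.1 CPM in Control (log2 -2.47 ± 0.33 SE, edgeR adjusted p = 0.000118). Of 17 enteric neuron and glia genes 5 were lower and 1 higher (after omission 1 and 2 lower). The amount of muscle wall in each library was not tested.

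Of 21 genes of base excision, alkylation and mismatch repair 4 were higher and 1 lower (median 0.03; after omission 1 and 0 higher, 1 and 1 lower), a share called near the 27.3% of all genes. Neil1, a glycosylase that starts base excision, was at 23.6, 19 and 25.4 CPM at saline D48 and 13.3, 13.6 and 15.2 CPM in Control (log2 0.69 ± 0.16 SE, edgeR adjusted p = 0.00567). Tdg, a glycosylase that removes thymine from mismatches, was at 39.4, 41.9 and 38.7 CPM at saline D48 against 55.7, 61.4 and 56.2 CPM in Control (log2 -0.53 ± 0.09 SE, edgeR adjusted p = 0.000882). Apex1, whose protein is the target of the inhibitor of the series, was at 4.23, 8.06 and 5.58 CPM at saline D48 and 3.73, 4.89 and 5.66 CPM in Control and was not called (log2 0.32 ± 0.28 SE, edgeR adjusted p = 0.431).

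The remaining genes with the widest gap between the groups have varied or little-known roles in colon. Khdc1a was at 11.8, 25.8 and 29.4 CPM at saline D48 and 1.16, 1.17 and 1.26 CPM in Control (log2 4.21 ± 0.53 SE, edgeR adjusted p = 8.57e-05), and Myl7, a myosin light chain best known from heart atria, was at 3.71, 9.73 and 8.07 CPM at saline D48 and 0, 0.292 and 0.399 CPM in Control (log2 4.93 ± 0.81 SE, edgeR adjusted p = 0.000528). Both were lowest in replicate 1 among the saline D48 libraries. Zbtb16, a transcription factor that glucocorticoids induce, was at 3.44, 8.73 and 2.5 CPM at saline D48 and 46.7, 39.4 and 33.7 CPM in Control (log2 -3.04 ± 0.45 SE, edgeR adjusted p = 0.000259). Wnt8b, a Wnt ligand, was at 1.26, 0.666 and 1.16 CPM at saline D48 and 7.08, 5.99 and 8.26 CPM in Control (log2 -2.78 ± 0.43 SE, edgeR adjusted p = 0.000326). Both were chosen for their gap, so their lack of overlap was fixed by that choice. Galnt17, which starts mucin-type sugar chains, was at 1.72, 1.47 and 1.86 CPM at saline D48 and 17.1, 8.91 and 10.8 CPM in Control (log2 -2.86 ± 0.34 SE, edgeR adjusted p = 5.91e-05). Myo18b, a myosin of striated muscle, was at 1.65, 1.67 and 1.68 CPM at saline D48 and 17.9, 6.87 and 9.32 CPM in Control (log2 -2.77 ± 0.35 SE, edgeR adjusted p = 9.03e-05). The highest Control level of both genes was in replicate 1, the library with the largest skeletal muscle share, and its part in them was not tested. Atcayos, an antisense transcript that cannot be told from its partner without strand, was at 0.662, 0.267 and 0.465 CPM at saline D48 and 10.9, 2.85 and 5.99 CPM in Control (log2 -3.8 ± 0.60 SE, edgeR adjusted p = 0.000387).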

How the data were processed

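RNA-seq counts per gene were compared between 3 saline D48 and 3 Control colon libraries of 15 in the series. The labels' protocols name an RNeasy mini plus kit for RNA and a SMARTER mRNA-Seq kit for the libraries. The authors deposited 1 table of raw counts per gene symbol, and the builds GRCm38 and mm10 are named in the submitters' processing notes. Not given in the sources used here are the aligner, the counter and the use of strand, so antisense, overlapping and near-identical genes are uncertain.

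Of 56859 genes in the table, 23552 had no count in any library and 18038 passed edgeR's expression filter. The deposited counts were scaled by TMM and fitted with edgeR's quasi-likelihood test (edgeR 4.0.16, R 4.3.3) over all 15 libraries in 5 groups, with Benjamini-Hochberg adjustment over all genes tested and a threshold of 0.05. CPM values (counts scaled to a common library size) are TMM-scaled and not per length, so levels are compared between libraries and not between genes. The SE of a log2 fold change was taken from the test statistic. Alternatives used limma 3.58.1, DESeq2 1.42.0, other scalings and filters, and fewer libraries. The fit was also run on simulated counts. These held no transcripts of other tissues particular to a library, so that run does not bear on such transcripts.

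Of 58 gene lists, up to 6 called members with the smallest p were named per list, with members not called where a result turned on them and Apex1. In addition 30 genes were named by rule: in each direction, the 15 called genes with the widest gap in log2 CPM between the nearest libraries of the groups, with a mean of at least 5 CPM in the higher group. This left out clone and predicted names, receptor and immunoglobulin segments, pancreas, skeletal muscle and squamous lists, and genes over 8 times as high in saline D48 replicate 2 or 3 as in replicate 1. C6, Ciart, Cxcl10, Cxcl2, Foxp3, Hspa5, Ighg1, Lgr5, Maoa, Maob, Mmp7, Reg3b, S100a8, Selp, Slc26a3, Spp1 and Tnf fall outside these rules and were chosen after their values were seen. Members and lists were chosen with earlier results of these data known. Intervals and floors cover counting error only. Gene positions are from GENCODE M21 and promoter sequences from RefSeq (GRCm38.p6). Replicate numbers were not treated as pairs. Deviations from the group means correlated at -0.04, -0.11 and 0 between same-numbered saline D48 and Control libraries. With 3 libraries per group and transcripts of other tissues in some, these values cannot exclude pairing. Figures were drawn with matplotlib 3.10.9 (Python 3.11.15).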

Additional observations from a re-analysis of the deposited data

Results flagged for a closer look

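Of the 30 genes with the widest gap between saline D48 and Control, 6 also differed at saline D48 from both saline D27 and saline D100 in the same fit (edgeR adjusted p below 0.05 in each), so their difference from Control was not the same on the 3 days. On the log2 scale saline D48 minus saline D27 was 4.21 for Saa3, 1.48 for Serpina3n, 2.21 for Hp, 2.07 for Wfdc18, 3.06 for Mmp10 and 1.67 for Csf3r. Saline D48 minus saline D100 was 4.08 for Saa3, 0.97 for Serpina3n, 2.94 for Hp, 3.22 for Wfdc18, 3.21 for Mmp10 and 1.70 for Csf3r. All 6 were higher at saline D48, and they encode acute phase and secreted proteins, a matrix protease and a neutrophil receptor. Khdc1a (2.03) and Slc37a2 (-1.37) differed from saline D27 only. Clca4b (1.93), Nos2 (2.20), Myl7 (2.53), Ang4 (-2.88), Dbp (-1.74) and Nr1d1 (-1.77) differed from saline D100 only, each value being saline D48 minus saline D100. Ang4 was thus above Control at saline D48 but lower than at saline D100. The 30 were selected for their gap from Control, and these comparisons share the saline D48 libraries.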

How the results depend on the processing

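Against Control 2574 genes were higher and 2342 lower at saline D48, and 244 were called against saline D27 and 2453 against saline D100. With the smooth muscle level as a covariate these became 11, 3, 0 and 1995, and 107 of the 113 called genes named in the text missed the threshold; that level separates the groups, so it and the group cannot be told apart. Without saline D48 replicates 2 and 3 the counts were 984, 552, 24 and 499, and without Control replicates 1 and 3 they were 647 and 746 against Control, with 163 against saline D27 and 2064 against saline D100; fewer libraries remain in both, and the lone library left in a group was assumed to vary like the others. After the first omission 14 of the named genes missed the threshold (Scnn1g, Cldn1, Cycs, Foxp3, Ido1, Mmp7, Notum, Prox1, Reg3b, S100a8, Sp5, Spp1, Tnf and Wif1), and after the second 21 did (Scnn1g, Cldn1, Ciart, Col4a1, Cr2, Cry1, Cxcl2, Cxcr2, Cycs, Foxp3, Hspa5, Ighg1, Lgr5, Ly6a, Neil1, Notum, Prox1, Reg3b, Sp5, Spp1 and Wif1). A log2 fold change of at least 1 left 1265, 656, 97 and 510. Genes called against saline D27 numbered 911 with no filter on low counts, 706 by DESeq2's Wald test and 417 by limma-voom, and the cause was not tested. Leaving out 1 library at a time gave 1909 to 2209 genes higher and 1641 to 2249 lower than in Control, 68 to 247 against saline D27 (68 without saline D48 replicate 3) and 1653 to 2330 against saline D100. With the replicate number as a block the counts were 2458, 2205, 182 and 2261, and among named genes this ended the call of Lgr5 (log2 -0.90, edgeR adjusted p = 0.0552). Of the 113 called genes, 108 kept their call whichever library was left out, and none of the 113 changed sign under any alternative run. Limma-voom lost Cr2, Mmp7, Notum, Reg3b, Retnlb and Spp1. Genes near 0 in Control are limited by depth.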
